A study of Mus musculus with 2 samples.

Results

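Transcripts of the Hippo pathway and of genes that its effector YAP is known to switch on were compared between 2 clones of mouse embryonic stem cells, one with a hairpin RNA that targets Dab2 and one with the control plasmid. The set holds 10 genes: the coactivator gene Yap1, the DNA-binding partner genes Tead1, Tead2 and Tead4, the kinase genes Lats1 and Lats2, and the target genes Ccn1 (formerly Cyr61), Ccn2 (formerly Ctgf), Ankrd1 and Amotl2. All probe sets annotated to 1 of these genes alone were taken, 19 of the 20380 single-gene probe sets, so 10 of the 12393 measured genes. A further probe set, shared between Lats2 and another gene, was not used.

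The study asked which transcripts differ when Dab2, an endocytic adaptor gene, is targeted. Both clones derive from E14tg2a, an established line of such cells, and each is a single stable transfectant: clone 4 of the hairpin construct shDAB2-285 (the shDAB2 clone) and clone 9 of the vector control (the vector clone). They grew in the same medium, GMEM with 10% fetal bovine serum, glutamine, antibiotics and 1000 U/ml of leukaemia inhibitory factor, with no other treatment. A single Affymetrix mouse 430A array was run for each clone, so there is no replicate, no error between cultures and no test, and a difference cannot be assigned to the hairpin rather than to the clone, the culture or the array.

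The Hippo pathway is a kinase cascade that restrains growth. The MST kinases activate LATS1 and LATS2, which phosphorylate YAP and its relative TAZ, so that both are held in the cytoplasm or degraded; unphosphorylated YAP enters the nucleus and binds TEAD factors on target genes. Cell junctions, cell polarity and tension in the actin cytoskeleton feed into the cascade, and in the early mouse embryo YAP with TEAD4 drives the trophectoderm programme in outer cells. YAP is thus controlled largely by phosphorylation and location, which an array of transcripts does not measure.

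TEAD factors bind DNA at a short element whose core reads CATTCC. The 300 bases around each start site (250 before and 50 after) in the RefSeq table of build GRCm38.p6 were searched for these letters on both strands, since a match on the opposite strand reads GGAATG. Windows were listed for 7 of the 10 genes; Tead1, Tead4 and Ccn2 had none. The letters occurred in 5 of the 7 genes (Ccn1, Amotl2, Ankrd1, Yap1 and 1 of the 2 Lats2 windows), against 14.7% of all 32851 windows and 14.2% of the 5929 genes above the detection floor that had a window. The windows of Tead2 and Lats1 did not hold them. Stretches of the 3 target genes with a window are shown, since the comparison turns on the targets; capitals mark the matches. For Ccn1 the 250 bases before the start are given, chr3:145649986-145650235 on the minus strand, with the match beginning 103 bases before the start. For Ankrd1 they are chr19:36119845-36120094, minus strand, with matches beginning 210 and 123 bases before the start. For Amotl2 only 30 bases are shown, chr9:102717727-102717756, plus strand, with the match beginning 65 bases before this start, because the gene's annotated span begins 713 bases further upstream.
Ccn1: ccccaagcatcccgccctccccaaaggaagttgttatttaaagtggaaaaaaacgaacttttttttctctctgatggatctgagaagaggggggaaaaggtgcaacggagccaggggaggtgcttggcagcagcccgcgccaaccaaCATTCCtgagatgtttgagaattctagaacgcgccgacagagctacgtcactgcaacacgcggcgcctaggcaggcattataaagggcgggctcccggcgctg
Ankrd1: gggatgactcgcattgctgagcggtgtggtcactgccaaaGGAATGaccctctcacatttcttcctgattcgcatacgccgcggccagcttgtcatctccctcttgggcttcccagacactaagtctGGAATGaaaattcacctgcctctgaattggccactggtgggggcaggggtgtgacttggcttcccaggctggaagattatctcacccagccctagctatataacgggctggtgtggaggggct
Amotl2: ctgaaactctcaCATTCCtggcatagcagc
A match describes the letters and does not show that a TEAD factor binds there.

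Values are log2 expression values from RMA, which removes background, equalises the distributions of the arrays and summarises the probes of a probe set. Levels of different probe sets are not comparable with each other, so each is compared only between the clones. The floor was set at 6.62, the median of all values, and a gene passes it if its value on either array is at least that; below this RMA compresses differences. Yap1, Tead2, Lats2, Ccn1, Ccn2 and Amotl2 lay above the floor, each on both arrays. Tead1, Tead4, Lats1 and Ankrd1 lay below it on both. The difference is given as the shDAB2 clone minus the vector clone. Among the 7269 genes above the floor it had a median of 0.0006 and an SD of 0.22.

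Over 22626 probe sets the arrays correlated at r = 0.99. Dab2 itself read 6.64 in the vector clone against 6.33 in the shDAB2 clone on its brightest probe set, a difference of -0.31, and its other probe sets differed by -0.05 and -0.01, so the lowering of the targeted transcript rests on 1 dim probe set. All 10 embryonic stem cell markers were above the floor, 5 lower and 5 higher, with a median of 0.02. Pou5f1 stood at 0.10, Sox2 at -0.17 and Nanog at -0.02, and the widest, named after their values were seen, were Fgf4 at 0.61 and Klf2 at -0.54. Defining markers of other cell types were mostly dim: 9 of 10 fibroblast, 5 of 6 endothelial and 6 of 8 primitive endoderm markers lay below the floor. Of 9 trophectoderm markers 4 lay below it and the other 5 were all lower in the shDAB2 clone, with a median of -0.72. Named after their values were seen, these 5 were Krt18 (-1.32), Krt7 (-0.82), Krt8 (-0.72), Tfap2c (-0.47) and Hand1 (-0.02). The 4 below the floor, named likewise, were Cdx2 at -0.03, Eomes at 0.11, Elf5 at 0.07 and Gata3 at -0.02. The lower values thus lay in the keratin genes and Tfap2c.

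The widest differences of the set were those of the YAP targets Amotl2 and Ccn1. Both were lower in the shDAB2 clone, by 1.53-fold and 1.46-fold. Ankrd1 was 1.10-fold lower, below the floor. Ccn2 was 1.14-fold higher, but its difference of 0.19 was smaller than the SD of 0.31 among probe sets of similar signal. At a limit of 1.5-fold, 1 of the 6 genes above the floor was lower (Amotl2) and 0 were higher, where by as much 1.62% of all genes that passed the floor were lower and 0.578% higher. At a smaller limit, a log2 difference of 0.32, the lower genes were 2 (Amotl2 and Ccn1) and the higher 0, against 6.07% and 4.91% of all genes. Ccn1 lay just outside the 1.5-fold limit and Amotl2 just inside it. With 6 genes above the floor, 1 gene makes a large share of the set, and the genes were chosen with results of these arrays known. In RNA pooled from a whole culture, fewer cells that express a gene and less RNA per cell cannot be told apart.

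Amotl2 encodes angiomotin-like 2, a junction and actin-binding protein that holds YAP out of the nucleus and is itself a YAP target. Its single probe set read 8.55 in the vector clone against 7.93 in the shDAB2 clone. The difference was -0.61, and 103 of the 7269 genes (1.42%) differed by this much or more in that direction. The 1000 probe sets of most similar signal had differences with an SD of 0.28, which includes real differences between the clones.

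Ccn1 encodes a secreted matrix-associated protein that binds integrins and is induced rapidly by serum and mechanical load. Its brightest probe set read 8.06 in the vector clone against 7.52 in the shDAB2 clone. The second probe set read 7.73 and 7.18. The differences, -0.54 and -0.55, were nearly equal, and the disagreement was far below the 0.11 by which 1 probe set typically varies (the SD estimated from 2502 genes with at least 2 probe sets above the floor). Among genes above the floor 147 (2.02%) were as low or lower. SDs of probe sets of similar signal were 0.25 and 0.21.

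Ccn2, the closest relative of Ccn1 in the set and also a TEAD target, went the other way. Its single probe set gave 8.70 in the vector clone against 8.89 in the shDAB2 clone. The difference of 0.19 was smaller than the SD of 0.31 among probe sets of similar signal, and 1042 genes (14.3%) were as high or higher. The other measured CCN genes, named here after their values were seen, lay below the floor, with Ccn3 at 0.14, Ccn4 at -0.15 and Ccn5 at -0.02.

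Ankrd1, which encodes a muscle ankyrin repeat protein that is induced by stretch, was dim. Its probe sets gave 6.53 and 6.44 in the vector clone, against 6.39 and 6.33 in the shDAB2 clone. The differences of -0.14 and -0.11 had the same sign and were each larger than the SD of 0.09 and 0.08 among probe sets of similar signal. Both values lie below the floor on both arrays, where folds are understated.

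**Figure D1:**
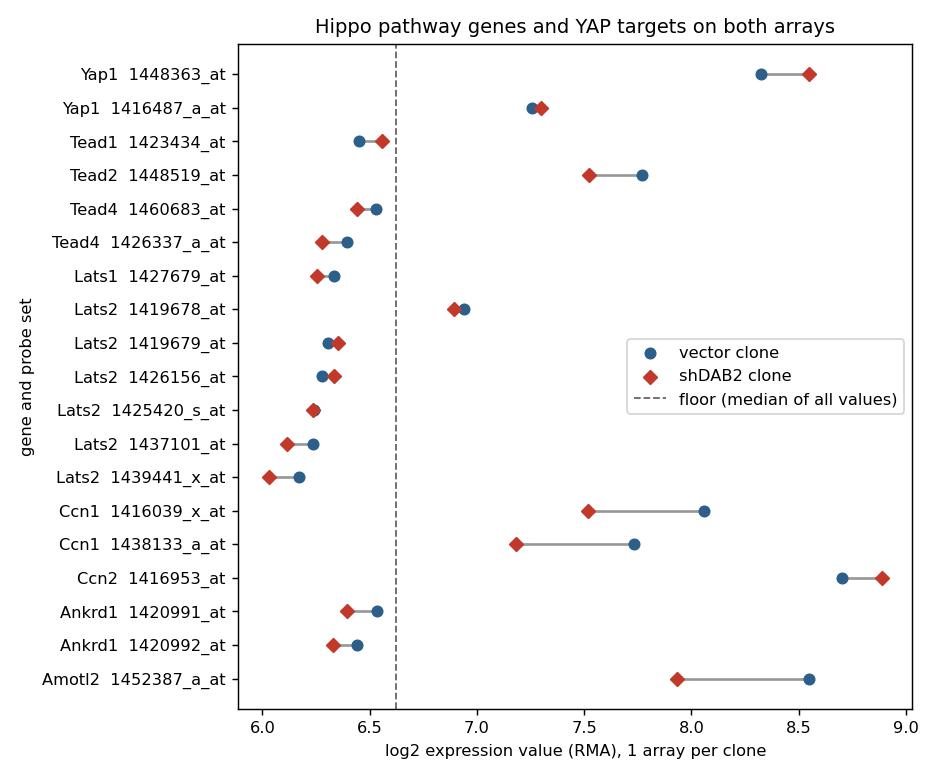
Log2 RMA values of the 19 probe sets of the 10 genes in the vector clone (circles) and the shDAB2 clone (diamonds), 1 array each; the dashed line is the floor of 6.62. Ccn1 (-0.54 and -0.55) and Amotl2 (-0.61) have the widest gaps, with the shDAB2 clone lower, while Yap1 and Ccn2 have the shDAB2 clone higher.

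Yap1 was slightly higher in the shDAB2 clone. The brighter probe set read 8.55 there against 8.32 in the vector clone, a difference of 0.22, and the second read 7.30 and 7.26, a difference of 0.04. The sign was the same, and the sizes differed by 0.18. The probe-set SD of 0.11 is for 1 probe set, and a gap between 2 varies more than that. A difference as high was found in 778 genes (10.7%), and the SD among probe sets of similar signal was 0.29. The YAP transcript was thus not lower in the clone in which Ccn1 and Amotl2 were lower.

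The TEAD genes, which encode the factors through which YAP reaches DNA, showed small differences. Tead2 read 7.77 in the vector clone against 7.52 in the shDAB2 clone. Its difference of -0.25 was close to the SD of 0.22 at similar signal, and 713 genes (9.81%) were as low or lower. The Tead4 probe sets gave 6.53 and 6.39 in the vector clone, against 6.44 and 6.28 in the shDAB2 clone. These differences of -0.09 and -0.12 had the same sign, below the floor. Tead1 read 6.45 in the vector clone against 6.56 in the shDAB2 clone, a difference of 0.11 that also lay below the floor. Of the 3 TEAD genes of the set, Tead2 alone passed the floor.

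The kinase genes Lats1 and Lats2, whose products phosphorylate YAP, hardly differed. Lats2 read 6.94 in the vector clone against 6.89 in the shDAB2 clone on its brightest probe set, a difference of -0.04. Its 6 probe sets ran from -0.14 to 0.06, with 4 lower and 2 higher; 5 of them lay below the floor. Lats1 read 6.33 in the vector clone against 6.26 in the shDAB2 clone on its single, dim probe set, a difference of -0.08. Lats2 is known as a YAP target as well as a kinase, and it did not share the lower values of Ccn1 and Amotl2: 2805 of the 7269 genes (38.6%) were as low or lower.

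**Figure D2:**
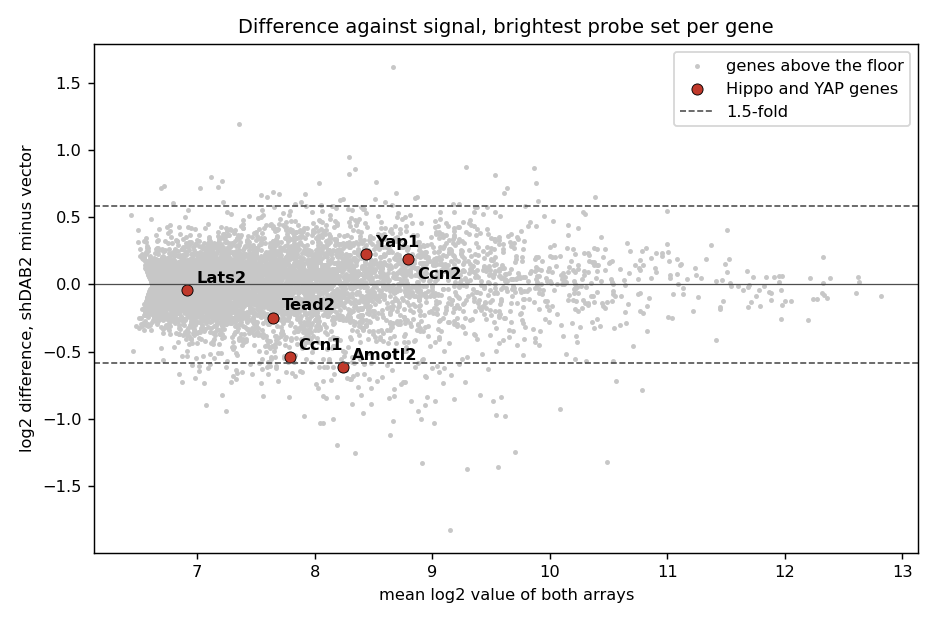
Log2 difference (shDAB2 minus vector) against mean log2 value for the 7269 genes above the floor (grey) and the 6 Hippo and YAP genes among them (red); dashed lines mark 1.5-fold. Amotl2 lies just past the lower line and Ccn1 just short of it, and the other 4 lie within the cloud.

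Of the 6 genes that passed the floor 4 were lower and 2 higher (median -0.15), where 49.3% of all genes that passed it were lower. With probe sets averaged per gene, Lats2 fell below the floor, since most of its probe sets are dim. The median of the genes left was then -0.25, with 3 lower. Over all 10 genes the median was -0.08, with 7 lower and 3 higher. The median of all measured genes without a floor was 0.01, with 45.9% lower.

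The rest of the pathway was described with lists of genes grouped by role, given first over all measured members. The lists were chosen with earlier results of these data known, so their counts and shares are descriptions only. Among coactivators and TEAD-binding factors 6 of 8 genes were lower, with a median of -0.05, and 0 of the 5 above the floor passed 1.5-fold. The largest difference was that of Wwtr1, which encodes TAZ. It read 7.64 in the vector clone against 7.29 in the shDAB2 clone, a difference of -0.36 (-0.22 on the second probe set), and all 3 of its probe sets were lower. Wwtr1 and Yap1, the genes of the 2 related coactivators, thus had differences of opposite sign. That of Yap1 (0.22) was smaller than the SD of 0.29 among probe sets of similar signal. Averaged over probe sets, Wwtr1 was at -0.23 and Yap1 at 0.13. Tead3 (-0.06) and Vgll4 (-0.03), the latter encoding a TEAD-binding repressor, hardly differed.

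Hippo kinases and their scaffolds showed no common direction. Of 13 genes 6 were lower and 7 higher, the median was 0.01, and 0 of 11 above the floor passed 1.5-fold. Taok1, an upstream kinase gene, was at 0.22 on 1 probe set and at -0.07 on the next in signal. Map4k4 was at -0.17 and 0.05. The direction of both therefore depends on the probe set. Sav1, the scaffold gene of the MST kinases, was at 0.15 and 0.02. Map4k5 was at 0.10 and 0.05, with 1 of its 3 probe sets lower.

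Upstream regulators at the membrane and at junctions were mostly lower. Of 21 genes 19 were lower and 2 higher, with a median of -0.16. Of the 20 above the floor 2 were at least 1.5-fold lower, Llgl2 and Amotl2, a share of 10% against 1.62% of all genes. Without Amotl2, which belongs to the set itself, it was 1 of 19. Limd1, named after its value was seen, passed the floor only in the vector clone (6.66 against 6.57). It is counted among the 20 but did not pass 1.5-fold. Llgl2, a polarity gene, read 8.42 in the vector clone against 7.80 in the shDAB2 clone, a difference of -0.62. Ctnna1, encoding alpha-catenin, which links cadherins to actin and restrains YAP, read 10.59 and 10.02, a difference of -0.57 (-0.60 on the second probe set). All 3 of its probe sets were lower, but their mean difference was smaller, at -0.44. The scaffold gene Dlg1 was at -0.51 (-0.37 on its second probe set), and the polarity gene Patj at -0.44 (-0.19 on a second probe set below the floor). Of the trophectoderm markers given above, the epithelial keratin genes and Tfap2c were lower in the same clone. Their part in these differences was not tested.

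The STRIPAK phosphatase acts against the MST kinases, and 14-3-3 proteins hold phosphorylated YAP in the cytoplasm. Of 16 genes 11 were lower and 4 higher, with a median of -0.07 and 0 of 15 above the floor past 1.5-fold. The 14-3-3 genes Sfn and Ywhag were at -0.40 and -0.36 (-0.34 on the second probe set of Ywhag), while Ywhah was at 0.20. The phosphatase catalytic subunit gene Ppp2ca was at -0.21 and, on its second probe set, at -0.07.

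Over a wider list of YAP and TAZ targets, which includes Ccn1, Ccn2, Ankrd1, Amotl2 and Lats2, 14 of 19 genes were lower and 5 higher, with a median of -0.09. Of 14 above the floor 2 were at least 1.5-fold lower (14.3%, against 1.62% of all genes) and 0 at least as much higher. These were Amotl2 and F3, the gene of tissue factor, which starts blood coagulation. F3 read 7.23 in the vector clone against 6.51 in the shDAB2 clone, a difference of -0.72 on 1 probe set. It was above the floor only in the vector clone, so it entered the count through the array on which it was high. Without the members of the set, 9 of the 10 remaining genes that passed the floor were lower, with a median of -0.13. F3 is 1 of these 9, so the floor itself helped to place it there. The receptor kinase gene Axl was at -0.29, but at 0.03 on a second probe set below the floor. Myof, encoding myoferlin, was at -0.26 (-0.05 on a second probe set below the floor) and Igfbp3, an insulin-like growth factor binding protein gene, at -0.23. Apart from Amotl2, Ccn1 and F3, the listed targets differed by -0.29 to 0.19.

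Genes of actin tension were mostly lower. In the list of targets of SRF, the serum response factor, which responds to free actin through MRTF coactivators, 20 of 24 genes were lower and 4 higher, with a median of -0.35. Above the floor 6 of 22 were at least 1.5-fold lower (27.3%) and 0 as much higher, where 1.62% of all genes that passed the floor were lower and 0.578% higher by that much. Acta1, the skeletal muscle actin gene, read 8.78 in the vector clone against 7.59 in the shDAB2 clone, a difference of -1.19. It rests on 1 probe set, of a kind that can match several transcripts. The actin-binding protein genes Tagln, Cnn2 and Tagln2 were at -0.98, -0.82 and -0.74 (-0.45 on the second probe set of Tagln2). Other genes of the list hardly differed. Named after their values were seen, Srf was at -0.085, Actb at -0.06 and Actg1 at -0.11. This list, too, was chosen with earlier results of these data known, so its share is a description only. No member of the Hippo and YAP set stands in this list. The difference between this list and the YAP targets was not tested.

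**Figure D3:**
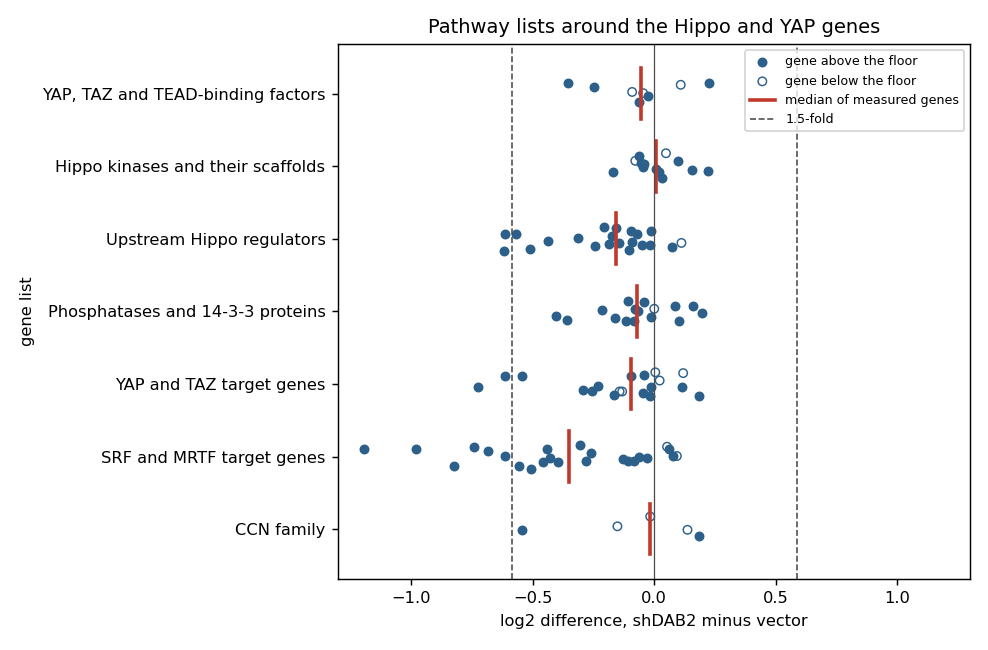
Log2 difference (shDAB2 minus vector) of each gene in 7 lists, with filled points above and open points below the floor, red bars for the median of the measured genes and dashed lines at 1.5-fold. The SRF list has the lowest median (-0.35), and the list of Hippo kinases (0.01) centres on 0.

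The values of the 10 genes varied little with the scaling of the arrays and the choice of probe sets. Cyclic loess moved them by at most 0.04, centring each array on its median by at most 0.01, and averaging all probe sets of a gene by at most 0.09, the last in Yap1. The sign was kept in all 10 genes under these 3 choices. Part of this was fixed in advance. Centring shifts all genes by the same amount, and averaging cannot move Tead1, Tead2, Lats1, Amotl2 or Ccn2, which have 1 probe set each. Leaving out probe sets whose names end in _s_at, _x_at or _a_at, which can match several transcripts, could not change 8 of the genes. Their brightest probe sets carry no such ending. Ccn1 and Amotl2 had no value left without the probe sets that carry one. The lower values of Ccn1 and Amotl2 therefore rest on probe sets of this kind.

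**Figure D4:**
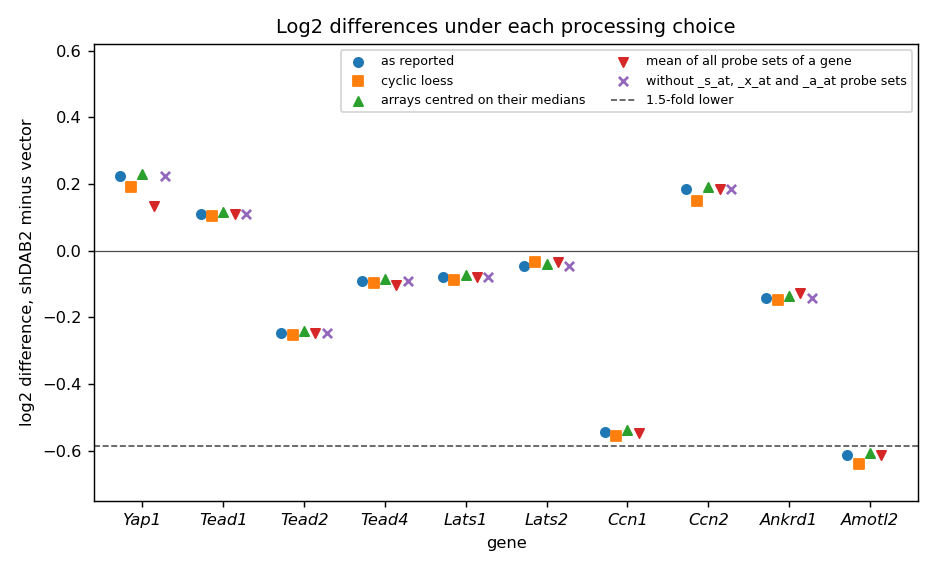
Log2 difference (shDAB2 minus vector) of the 10 genes as reported and under 4 other processing choices, 1 symbol for each; the dashed line marks 1.5-fold lower. The symbols of a gene lie close together, and Ccn1 and Amotl2 have none for the choice that leaves out _s_at, _x_at and _a_at probe sets.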

How the data were processed

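RNA from 1 shDAB2 and 1 vector clone was measured on Affymetrix mouse 430A arrays, with groups read from the titles. The deposited table gives 1 log2 value per probe set and array, made with RMA per the submitters' processing notes; the RMA version is not given in the sources at hand and no log base is stated, so log2 was taken because RMA writes it. Values ran from 5.65 to 12.86. Of 22626 probe sets 20380 had 1 gene in the platform annotation, 691 several and 1555 none; only the first were used. A gene with several probe sets took the one with the highest mean. The difference of the log2 values was the measure, described by size with 1.5-fold as the limit; with 1 array per clone, the number of arrays limits the precision and no p-value exists. The members and the 7 lists were chosen with earlier results of these data known; a further list is not reported here. Named genes are the members, up to 4 others above the floor per list with the largest absolute difference, Dab2, Pou5f1, Sox2 and Nanog; any other is said to have been named after its value was seen. The calculation was checked on simulated data. Alternatives were cyclic loess (limma 3.58.1, R 4.3.3), median centring, the mean of probe sets, removal of _s_at, _x_at and _a_at probe sets, no floor, and limits of 0.32 (log2) and 2-fold. Computation used Python 3.11.15, pandas 2.3.3 and numpy 2.4.6. Promoter windows came from RefSeq, GRCm38.p6.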

Additional observations from a re-analysis of the deposited data

How the results depend on the processing

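No paired analysis was possible because each clone has 1 array. Without _s_at, _x_at and _a_at probe sets, 0 of the Hippo and YAP genes passed 1.5-fold lower and their median turned to 0.070, because Ccn1 and Amotl2 have no other probe sets by construction; the CCN median turned to 0.19 with Ccn2 alone. With no floor the CCN median was -0.0165, as dim members enter. By construction a 2-fold limit left 0 genes of the set lower and a limit of 0.32 on the log2 scale 2. With the mean of all probe sets Lats2 fell below the floor, and the median of the genes left in the set was -0.25. A floor set by the mean of both arrays was chosen after seeing the data and moved no median by as much as the probe-set SD of 0.11. The higher count of the set was 0 under all 8 alternatives. Medians of the SRF list ran from -0.43 to -0.33, of the wider YAP targets from -0.13 to -0.09 and of the upstream regulators from -0.18 to -0.11. Among other named genes, Map4k4 turned to 0.05 without the _s_at, _x_at and _a_at probe sets, and Acta1, Tagln2, Tead3 and Map4k5 had no value left. The SRF list, then smaller, had 4 genes at least 1.5-fold lower, against 6 as reported, which included Acta1 and Tagln2. Its median was then -0.42. Dim signal limits Ankrd1, Tead1, Tead4 and Lats1.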

Other observations

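The letters CATTCC stood in the promoter windows of 7 of the 14 wider YAP targets that had one, a share of 50%, against 14.2% of genes above the floor with a window. Within the list the match did not go with lower values. Of the 7 genes with it 6 were lower in the shDAB2 clone, with a median of -0.14. Of the 7 without it 6 were lower, with a median of -0.16. The letters were not confined to YAP targets. They stood in 6 of the 18 SRF targets with a window (33.3%) and in 5 of 6 genes of the coactivator and TEAD-binding list (83.3%). Counts were 5 of 16 upstream regulators (31.2%), 3 of 12 Hippo kinases (25%) and 1 of 12 phosphatases and 14-3-3 genes (8.33%). These again are genes with a window. The lists include genes below the floor, and of all windows 14.7% held the letters. The CArG box, the element that SRF binds, stood in 8 of the 18 SRF targets with a window (44.4%) and in 1.62% of genes above the floor with a window, and in 0 of the 7 Hippo and YAP genes with one. The 8 SRF targets with the box were all lower, from -1.19 to -0.03, with a median of -0.35. Of the 10 without it 9 were lower, with a median of -0.44. Both motif lists hold genes that are known for these elements, so the shares describe the choice of genes as much as the promoters, and no match says only that the letters are not in this window.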
